A study of Mus musculus with 12 samples.

Results

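Cultured mouse dendritic cells given Aβ1-42 oligomers alone were compared with untreated cells. The 3 RNA libraries of the Aβ group were set against the 3 of the untreated group (Ctrl), 6 of the 12 libraries sequenced in the study. The libraries were taken by their treatment label. All groups were bone marrow-derived dendritic cells (BM-DCs) of wild type C57BL/6 mice at post-natal week 12, grown for 9 days in medium with GM-CSF, the growth factor that drives marrow progenitors toward dendritic cells. Ctrl cells received neither agent. Aβ cells received 0.5 μM oligomers of recombinant human Aβ1-42, the peptide that aggregates in Alzheimer's plaques, from day 8 of culture and for 4 days in all. The remaining groups received LPS, a cell wall component of Gram-negative bacteria, at 100 ng/ml for 18 h (LPS), or both agents (Aβ+LPS), and appear below only where they place the level reached with Aβ. No library of cells given the scrambled peptide was analysed here, so the comparison is of oligomers with no peptide. The oligomers were prepared in DMSO and PBS, and the sources name no vehicle given to Ctrl cells. The peptide and the rest of its preparation therefore cannot be told apart. The sources do not say whether the 3 libraries of a group came from separate mice, so the p-values measure the spread between these libraries, which may be technical.

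Immature dendritic cells sample their surroundings and hold few co-stimulatory molecules. Contact with microbial or damage signals activates NF-kB through Toll-like and related receptors, and the cells then secrete cytokines, raise CD40, CD80 and CD86, and gain the chemokine receptor CCR7 that leads them to lymph nodes. Aggregated Aβ is bound by scavenger receptors, CD14, formyl peptide receptors and TREM2 on myeloid cells, and it is cleared by uptake into lysosomes. Cultures of marrow in GM-CSF hold dendritic cells together with macrophage-like cells, and in bulk RNA fewer cells of a type and less RNA per cell cannot be told apart.

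Values are normalized counts, which are reads per gene scaled to the depth of the library, and ± marks the SD over the 3 libraries of a group. Depth was 24129681 to 27209584 reads in genes in Ctrl and 23415609 to 27767553 in Aβ, and the typical gene varied little within a group, with a median SD of 0.09 on the log2 scale in Ctrl and 0.0863 in Aβ. The labelled cell type was checked against markers. *Itgax*, the gene of CD11c, stood at 31191 ± 253 in Ctrl and 24283 ± 489.7 in Aβ, *Cd74*, the invariant chain, at 43356 ± 1014 and 41152 ± 2045, and the GM-CSF receptor gene *Csf2rb*, which shares most of its sequence with *Csf2rb2*, at 42304 ± 1822 and 92249 ± 1496. The transcription factor gene *Zbtb46*, found in conventional dendritic cells and not in macrophages, was low in Ctrl at 106 ± 5.21 and reached 337 ± 21.4 in Aβ. *Flt3*, a receptor of dendritic cell progenitors, stood at 5.09 ± 4.07 and 61.7 ± 10.2. The macrophage genes *Mrc1* and *Adgre1* were present as well, at 19517 ± 1076 and 21722 ± 195 in Ctrl. Untreated cells therefore carried markers of both dendritic cells and macrophages.

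Most of the genes that were measured differed between Aβ and Ctrl. Genes were tested when Ctrl or Aβ averaged 10 or more normalized counts. A gene under 10 in 1 group passed only through the other group, so its direction was set by the filter. This holds for every gene named below with such a mean, among them *Egln3*, *C1s1*, *Plat*, *Cp*, *Hdc*, *Ido1* and *Hamp*. Such genes are part of the counts and medians of their lists. Of 14034 such genes, 9777 differed at an adjusted p under 0.05 (69.7%), 4960 higher in Aβ (35.3%) and 4817 lower (34.3%). The differences were small for many genes, since 1935 of the higher and 1969 of the lower genes moved by up to 0.5 on the log2 scale. A change over 1 was reached by 1800 higher (12.8%) and 1461 lower genes (10.4%). Large increases outnumbered large decreases, with 236 genes higher and 41 lower by over 4. In 10263 genes (73.1%) the 3 libraries of Aβ did not overlap with those of Ctrl. Against this background a call on a single gene is common, so that the size and the direction of the changes carry more than the call itself. The counts of list members below stand beside the same shares, 35.3% higher and 34.3% lower.

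**Figure D1:**
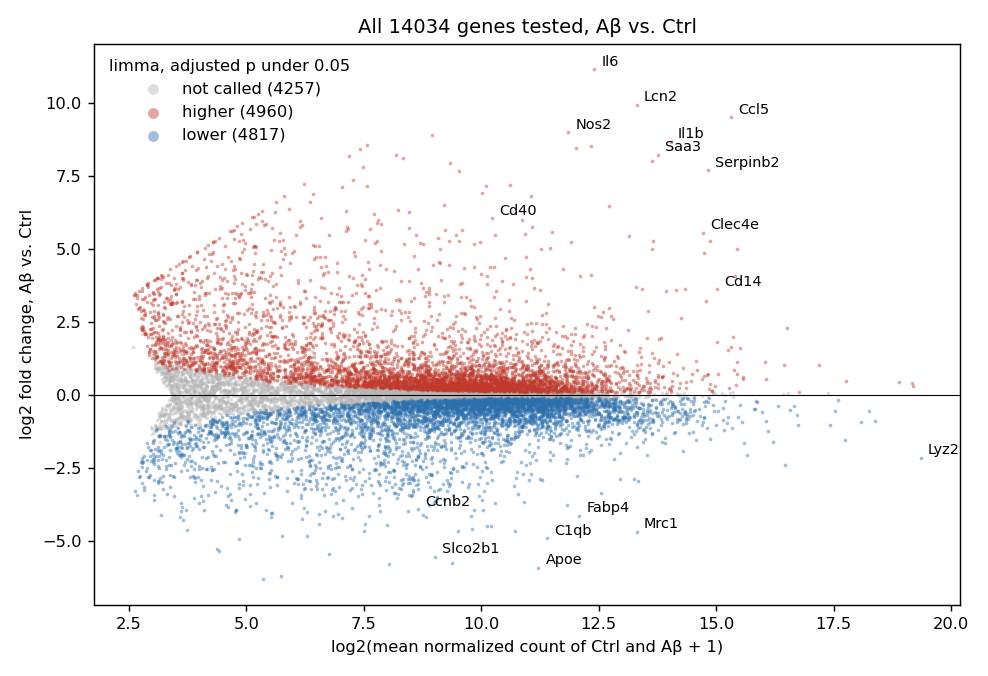
Log2 fold change of Aβ vs. Ctrl (vertical axis) against the log2 mean normalized count of both groups (horizontal axis), each point 1 of 14034 genes. Red points mark 4960 genes called higher in Aβ, blue points 4817 called lower and grey points 4257 not called, and the named increases, led by *Il6*, reach farther from 0 than the named decreases. Fitted values of genes at 0 in a group depend on the pseudocount.

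The largest increases included genes of cytokines, acute-phase proteins and inflammatory enzymes. *Il6*, the cytokine that drives the acute-phase response, had 5.07, 3.43 and 3.07 normalized counts in Ctrl and 11087, 10394 and 10955 in Aβ. The groups lay far apart and each was tight [log2(fc) = 11.14 ± 0.10 SE, limma adjp = 7.49e-27]. *Lcn2*, an iron-trapping antibacterial protein, had 22.3, 8.01 and 41.9 normalized counts in Ctrl and 20618, 20159 and 19831 in Aβ, again without overlap [log2(fc) = 9.92 ± 0.29 SE, limma adjp = 5.8e-18]. *Nos2*, the inducible nitric oxide synthase, had 13.2, 18.3 and 10.2 normalized counts in Ctrl and 7492, 7522 and 7128 in Aβ [log2(fc) = 8.99 ± 0.12 SE, limma adjp = 4.4e-24]. Every Aβ library lay above every Ctrl library for these genes. *Ccl5*, a chemokine for T cells and monocytes, rose from 110.1 ± 7.42 to 80982 ± 3424 [log2(fc) = 9.51], and *Saa3*, an acute-phase serum amyloid A protein, from 92.4 ± 11.3 to 27777 ± 1273 [log2(fc) = 8.22]. Of the 20 largest increases, 4 had no read in any Ctrl library. Set against a floor of 3 reads over the 3 Ctrl libraries, *Nppc*, which encodes C-type natriuretic peptide, was at least 358-fold higher in Aβ (358, 404 and 376 normalized counts), *U90926* at least 322-fold, *Il12a*, the p35 subunit of IL-12, at least 272-fold and *Csf3*, the neutrophil growth factor G-CSF, at least 139-fold. *Dcn*, the matrix proteoglycan decorin, had 3 reads over the Ctrl libraries and 2972 over the Aβ libraries, a ratio of 949 with a 95% counting interval of 324 to 4600, which covers counting error only. The other named increases of this size were *Vnn3*, *Susd2*, *Stfa3*, one of several near-identical stefin genes with an uncertain value, *Hamp*, *Serpinb2* and *Mir155hg*, the host transcript of miR-155, which rose from 6.44 ± 2.34 to 1465 ± 44 [log2(fc) = 7.66].

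The largest decreases included genes of macrophages. *Apoe*, the lipid carrier whose human E4 allele raises the risk of Alzheimer's disease, had 4471, 4623 and 4918 normalized counts in Ctrl and 83.4, 75.3 and 71.8 in Aβ, a 60.8-fold lower mean without overlap [log2(fc) = −5.91 ± 0.08 SE, limma adjp = 1.8e-23]. *Mrc1*, the mannose receptor CD206, had 20032, 18279.9 and 20238 normalized counts in Ctrl and 673, 762 and 851 in Aβ [log2(fc) = −4.68 ± 0.06 SE, limma adjp = 6e-24]. *Slco2b1*, an organic anion transporter, fell from 1014 ± 24.3 to 21.5 ± 7.12 [log2(fc) = −5.54]. The C1q chain genes *C1qb* and *C1qc* and *Cd5l*, a secreted scavenger protein of macrophages, fell by 4.59 to 4.90 on the log2 scale. *Tceal7*, the largest fitted decrease, had 2 reads over the Aβ libraries and 297 over the Ctrl libraries. *Il1rl1*, the receptor of IL-33, fell from 150.4 ± 10.6 to 4.46 ± 1.47 [log2(fc) = −4.83], and *Stab2*, a scavenger receptor, from 103 ± 8.87 to 3.54 ± 3.68 [log2(fc) = −4.82]. In absolute terms the largest decrease was that of *Lyz2*, the lysozyme of myeloid cells, which had 1079023, 1099698 and 1100108 normalized counts in Ctrl and 242318, 249544 and 244804 in Aβ [log2(fc) = −2.15]. The osteopontin gene *Spp1* followed, from 326503 ± 5078 to 112938 ± 6721 [log2(fc) = −1.53], and then *Psap*, whose product supplies the activators of lysosomal lipid breakdown, from 440687 ± 14730 to 239482 ± 8775 [log2(fc) = −0.88]. The largest absolute increases were those of *Fth1*, *Mmp12* and *Gpnmb*, which were already high in Ctrl, followed by *Mmp13*, *B2m* and *Inhba*. *Inhba*, the activin A subunit, rose from 2696 ± 176 to 86623 ± 4677 [log2(fc) = 5.01].

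**Figure D2:**
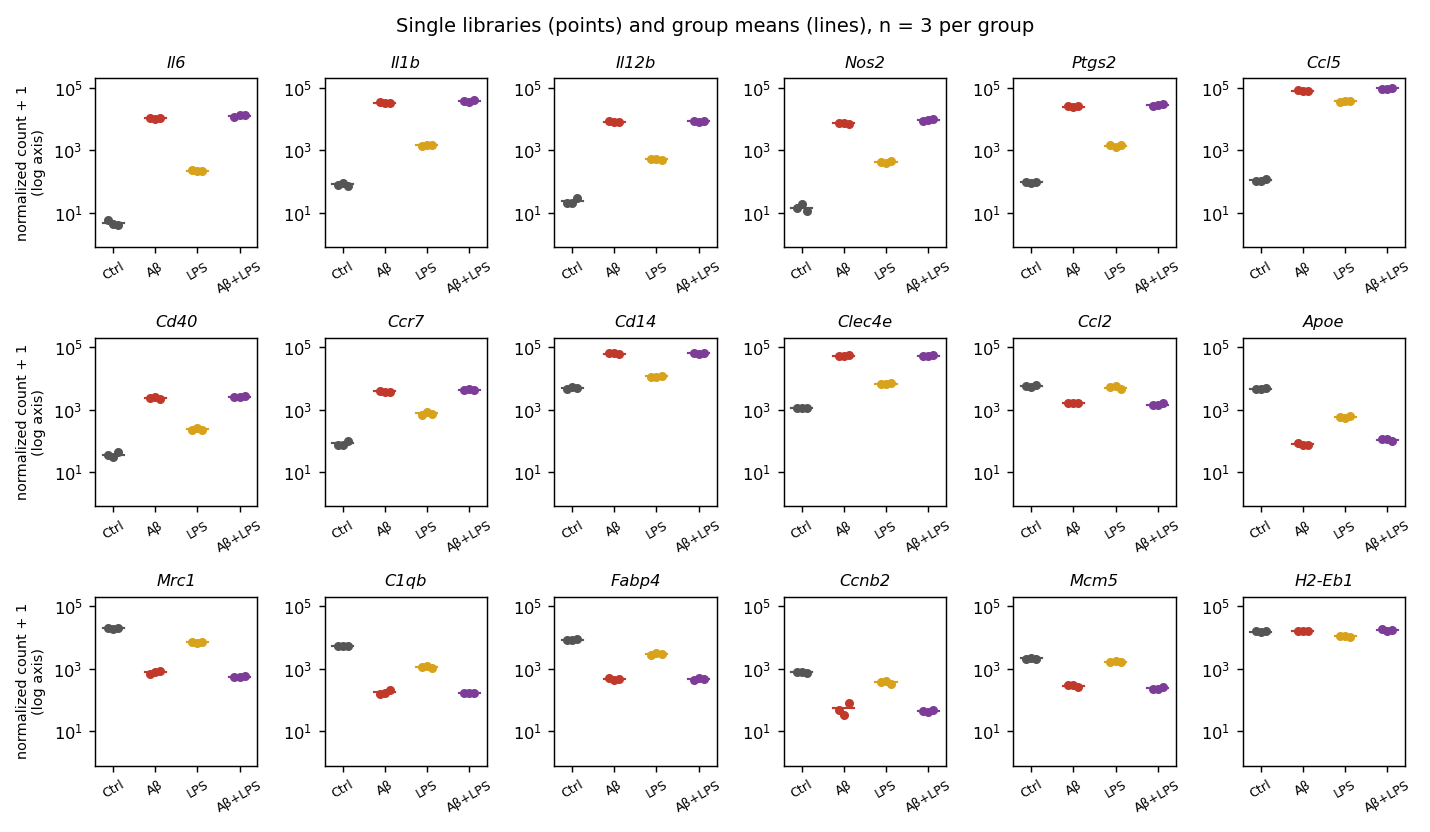
Normalized counts plus 1 (log axis) of 18 genes in the 12 libraries, with 1 point per library and a line at the mean of each group, n = 3 per group. In the genes from *Il6* to *Clec4e* the 3 Aβ libraries sit above the 3 Ctrl libraries, in those from *Ccl2* to *Mcm5* below them, and for *H2-Eb1* the group means differ little.

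Most of the tested cytokine genes were higher in Aβ. Of 23 cytokine genes listed, 21 passed the filter on low values, and 19 of these were higher and 2 lower in Aβ, with a median log2(fc) of 2.42 against 0.02 over all 14034 genes. Members under 10 in Ctrl, among them *Il6*, *Il12a*, *Il23a* and *Il10*, passed only through Aβ. The filter set their direction, and they are part of this count and median. *Il1b*, the fever-inducing product of inflammasome activity, had 77, 92.6 and 73.6 normalized counts in Ctrl and 34208, 33762 and 32017 in Aβ, with no overlap [log2(fc) = 8.67 ± 0.06 SE, limma adjp = 1.51e-28]. Its relative *Il1a* rose from 652 ± 89.3 to 25173 ± 399 [log2(fc) = 5.28]. *Il12b*, the p40 subunit shared by IL-12 and IL-23, had 19.3, 20.6 and 29.7 normalized counts in Ctrl and 8559, 7896 and 8285 in Aβ [log2(fc) = 8.44 ± 0.10 SE, limma adjp = 5.41e-25]. With *Il12a* and *Il23a* also higher, the subunits of both cytokines rose, although *Il23a* reached only 27.6 ± 7.97. *Tnf* rose less, from 630.4 ± 13.3 to 3389 ± 252 [log2(fc) = 2.42]. *Il10*, an anti-inflammatory cytokine, stayed near the detection limit with 7.03 ± 2.01 in Ctrl and 24.1 ± 8.52 in Aβ [log2(fc) = 1.62], whereas *Ebi3* and *Il27*, which together form IL-27, reached 3581 ± 174 and 116 ± 3.97. The 2 that fell were *Il15*, a survival factor of NK and memory T cells, from 330 ± 18.5 to 166 ± 1.23 [log2(fc) = −0.98], and *Il18*, an inducer of interferon gamma, from 186 ± 13.7 to 87.6 ± 11.2 [log2(fc) = −1.08]. *Il11* and *Ifnb1* did not pass the filter.

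Of 18 genes of the IL-1 family and the inflammasome, 14 rose and 3 fell. Beside *Il1a* and *Il1b* the alarmin gene *Il33* rose from 14.2 ± 4.46 to 104 ± 1.88 [log2(fc) = 2.83] and *Casp4*, which encodes the caspase that senses intracellular LPS, from 599 ± 26.7 to 1925 ± 51.5 [log2(fc) = 1.68]. *Pycard*, the ASC adaptor that assembles inflammasomes, moved the other way, from 2589 ± 90.8 to 1105 ± 50.1 [log2(fc) = −1.23]. *Nlrp1b*, an inflammasome sensor, fell from 666 ± 32.2 to 87.3 ± 7.92 [log2(fc) = −2.92]. The gasdermin D gene *Gsdmd*, whose product forms the pore through which IL-1β leaves the cell, had 1593 ± 102 in Ctrl and 1675 ± 26.6 in Aβ and did not pass the test [log2(fc) = 0.07 ± 0.05 SE, limma adjp = 0.201], but did as higher without Ctrl replicate 2 (limma adjp = 0.0411) and with all libraries scaled to the same total (0.00669).

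Most of the tested chemokine genes rose, while *Ccl2* and *Ccl7* fell. Of 29 listed, 20 passed the filter, 13 rose, 6 fell and *Pf4* was not called, with a median log2(fc) of 2.04. In a fit of only the 6 libraries compared *Pf4* was called as lower (limma adjp = 0.0334). The neutrophil-attracting *Cxcl1*, *Cxcl2* and *Cxcl3* rose: *Cxcl1* had 22.3, 14.9 and 25.6 normalized counts in Ctrl and 3107, 3051 and 3099.7 in Aβ [log2(fc) = 7.17 ± 0.13 SE, limma adjp = 1.09e-21]. *Cxcl2* rose from 406 ± 19.1 to 17826 ± 478 [log2(fc) = 5.45] and *Cxcl3* from 151 ± 21.4 to 13316 ± 714 [log2(fc) = 6.47]. *Ccl22*, which attracts regulatory T cells through CCR4, rose from 1804 ± 40 to 52774 ± 1025 [log2(fc) = 4.87], and the membrane-bound *Cx3cl1*, also called fractalkine, from 152 ± 31.2 to 2082 ± 42.5 [log2(fc) = 3.79]. *Ccl2* and *Ccl7*, which fell, encode ligands of CCR2 that draw monocytes. *Ccl2* had 5588, 5291 and 6020.3 normalized counts in Ctrl and 1588, 1668 and 1583 in Aβ, without overlap [log2(fc) = −1.80 ± 0.06 SE, limma adjp = 2.04e-16], and *Ccl7* had 1045, 834 and 1138 normalized counts in Ctrl and 177, 169.5 and 190.1 in Aβ [log2(fc) = −2.47 ± 0.13 SE, limma adjp = 1.75e-13]. *Ccl6*, a chemokine made constitutively by macrophages, fell from 152012 ± 7869 to 29094 ± 665 [log2(fc) = −2.38]. *Ccl8* was among the 9 chemokine genes below the filter.

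Of 16 chemokine receptor genes, 13 were tested, with 7 higher and 5 lower. *Ccr7* had 73, 74.3 and 101 normalized counts in Ctrl and 4061, 3616 and 3715 in Aβ, with no overlap [log2(fc) = 5.52 ± 0.10 SE, limma adjp = 6.5e-22]. *Ccr2*, the receptor with which monocytes leave the marrow, moved in the other direction, with 1613, 1387 and 1569 normalized counts in Ctrl and 143, 188 and 185 in Aβ [log2(fc) = −3.15 ± 0.12 SE, limma adjp = 3.66e-16]. *Ccr1* rose from 15054 ± 846 to 33582 ± 845 [log2(fc) = 1.16] and *Cx3cr1* from 141 ± 18.9 to 379 ± 11.2 [log2(fc) = 1.42].

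The κB site is the sequence that NF-kB dimers bind, and the promoter windows of the tested cytokine and chemokine genes were searched for it on both strands as GGG, any 2 bases and TTTCC, within 250 bases before the gene start (RefSeq, GRCm38.p6). It was found in 3 of 14 cytokine genes and 4 of 14 chemokine genes with a promoter in the table, against 1.65% of all 27025 genes there. The search describes letters only and does not show binding. Of the genes with a match, *Il6*, *Cxcl1*, *Cxcl2* and *Cxcl3* rose by over 5 on the log2 scale, whereas the changes of *Csf1* [log2(fc) = 0.13], *Il1rn* [log2(fc) = 0.24] and *Ccl9* [log2(fc) = 0.84] were under 1. The call on *Csf1* was lost without Aβ replicate 2 (limma adjp = 0.0924). The stretches of the 4 with the larger increases, chosen after their values were seen, are printed 5′ to 3′ on the strand of the gene with 1 κB match in capitals. The stretches of *Cxcl1* and *Cxcl2* hold a further match in lower case.
Il6, chr5:30013040-30013109, plus strand: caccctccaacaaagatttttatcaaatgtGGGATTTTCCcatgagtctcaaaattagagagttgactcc
Cxcl1, chr5:90891144-90891213, plus strand: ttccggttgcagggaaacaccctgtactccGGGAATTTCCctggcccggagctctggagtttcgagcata
Cxcl2, chr5:90903772-90903841, plus strand: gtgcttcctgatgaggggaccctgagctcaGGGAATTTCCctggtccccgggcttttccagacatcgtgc
Cxcl3, chr5:90785998-90786067, plus strand: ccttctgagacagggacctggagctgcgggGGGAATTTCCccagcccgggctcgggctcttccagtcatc

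Genes of dendritic cell maturation moved in 1 direction. Of 22 listed, 21 were tested and 21 rose, with a median log2(fc) of 3.17, the highest of the lists other than those of other cell types. *Fscn1*, the actin bundler of mature dendritic cell processes, had 53.7, 48 and 51.1 normalized counts in Ctrl and 2100.4, 1858 and 1905 in Aβ [log2(fc) = 5.23 ± 0.09 SE, limma adjp = 3.43e-22]. Each Aβ library exceeded each Ctrl library. *Cacnb3* and *Stat4* rose from 55.5 ± 13.6 to 1218 ± 104 [log2(fc) = 4.45] and from 22.4 ± 4.6 to 324 ± 19.5 [log2(fc) = 3.82]. Of 13 measured co-stimulatory ligand genes, 10 rose and 3 fell. *Cd40*, through which helper T cells license dendritic cells, had 34.5, 28.6 and 43 normalized counts in Ctrl and 2428, 2457 and 2208 in Aβ, without overlap [log2(fc) = 6.04 ± 0.11 SE, limma adjp = 1.05e-21]. *Cd80* had 712, 764 and 716 normalized counts in Ctrl and 2240.3, 2041 and 2256 in Aβ [log2(fc) = 1.57 ± 0.05 SE, limma adjp = 1.07e-16], and *Cd86* 701, 671 and 789 normalized counts in Ctrl and 1831, 1785 and 1891 in Aβ [log2(fc) = 1.35 ± 0.07 SE, limma adjp = 7.88e-14], so that the increases of the pair of B7 ligands were smaller than that of *Cd40*. The adhesion ligand gene *Icam1* rose from 2413 ± 59.4 to 5630.3 ± 64.8 [log2(fc) = 1.22]. *Tnfsf18*, the ligand of GITR, fell from 43.6 ± 4.76 to 26.9 ± 4.97 [log2(fc) = −0.69 ± 0.24 SE, limma adjp = 0.0143], a call that was lost without Aβ replicate 1 (limma adjp = 0.0673) or Ctrl replicate 3 (0.0537). *Cd48* fell from 3811 ± 95.7 to 2729 ± 59.1 [log2(fc) = −0.48].

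Most of the listed inhibitory and tolerogenic genes rose in the same libraries. Of 24 inhibitory and tolerogenic genes, 23 were tested, 19 rose and 4 fell, with a median log2(fc) of 1.85. *Pdcd1lg2*, which encodes the PD-1 ligand PD-L2, rose from 70 ± 5.75 to 651 ± 4.72 [log2(fc) = 3.20], and *Ido1*, the enzyme that depletes tryptophan, from 1.74 ± 1.15 to 100.2 ± 24.2 [log2(fc) = 5.26]. *Socs3*, a feedback inhibitor of cytokine receptors, had 102, 119 and 103 normalized counts in Ctrl and 1934, 1996 and 1873 in Aβ [log2(fc) = 4.15 ± 0.07 SE, limma adjp = 2.1e-22]. *Arg1* rose from 13.6 ± 7.62 to 114 ± 29.5 [log2(fc) = 3.06] and *Btla* from 15.3 ± 5.56 to 371 ± 47.6 [log2(fc) = 4.56]. The 4 that fell were *Vsir*, which encodes the checkpoint protein VISTA, from 17034 ± 231 to 10345 ± 299 [log2(fc) = −0.72], *Lilrb4a*, *Lgals9* and *Cd200r1*. Among 20 STAT and SOCS genes 12 rose and 3 fell. *Jak2*, the kinase behind the GM-CSF receptor, rose from 1514 ± 28.8 to 11932 ± 654 [log2(fc) = 2.98] and *Cish* from 214 ± 20.6 to 1026 ± 41.4 [log2(fc) = 2.26], whereas *Socs6* fell from 1857 ± 79.1 to 734 ± 51.5 [log2(fc) = −1.34]. *Stat2* had 1745 ± 205 in Ctrl and 1789.8 ± 49.3 in Aβ and did not pass the test [log2(fc) = 0.04 ± 0.07 SE, limma adjp = 0.583].

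NF-kB pathway genes and their feedback inhibitors rose in 25 of 26 cases, with a median log2(fc) of 1.18. *Traf1* had 136, 185 and 135 normalized counts in Ctrl and 4981, 4807 and 4549 in Aβ [log2(fc) = 4.98 ± 0.09 SE, limma adjp = 4.16e-22]. *Nfkbiz*, the IκBζ co-activator of secondary response genes, rose from 100.2 ± 15.5 to 1405 ± 70.4 [log2(fc) = 3.81], and *Tnfaip3*, the deubiquitinase A20 that ends NF-kB signals, from 1855 ± 28.1 to 9285 ± 206 [log2(fc) = 2.32]. *Irak3* and *Zc3h12a*, both brakes on Toll-like receptor signals, rose from 477 ± 54.3 to 2826 ± 53 [log2(fc) = 2.57] and from 706 ± 32.2 to 3891 ± 97.7 [log2(fc) = 2.46]. *Tnip3* was the gene that fell, from 3052 ± 63 to 2467 ± 136 [log2(fc) = −0.31]. Of 23 immediate early and AP-1 genes, 16 rose and 6 fell. *Maff* and *Nr4a3* rose from 293 ± 29.2 to 1216 ± 59.7 [log2(fc) = 2.05] and from 172 ± 21.9 to 725 ± 56.2 [log2(fc) = 2.07], and the AP-1 subunit genes *Jun* and *Fos* fell from 3452 ± 202 to 1656 ± 79.2 [log2(fc) = −1.06] and from 767 ± 16.8 to 554 ± 34 [log2(fc) = −0.47].

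Genes of MHC class II presentation did not move as a group. Their list counts proteases that cut antigen, such as *Lgmn* and *Ctsd*, beside the class II chains, *Ciita* and the chaperones. The counts and the median are those of this mixed list, and all decreases named below are those of proteases. Of 19 measured genes 8 rose (42.1%, against 35.3% of all genes tested) and 7 fell (36.8%, against 34.3%). The median log2(fc) was 0.06. *Ciita*, the master activator of class II transcription, had 551, 539 and 566 normalized counts in Ctrl and 767, 779 and 719.8 in Aβ, without overlap [log2(fc) = 0.45 ± 0.07 SE, limma adjp = 9.68e-06]. *H2-Ab1*, a beta chain, rose from 17685 ± 287 to 24080.5 ± 441 [log2(fc) = 0.45 ± 0.05 SE, limma adjp = 2.48e-08]. *H2-Eb1* had 15576, 14946 and 15740.5 normalized counts in Ctrl and 16556, 16128 and 16623 in Aβ and did not pass the test [log2(fc) = 0.09 ± 0.04 SE, limma adjp = 0.0657]. It passed as higher with TMM scaling at a log2(fc) of 0.11 (limma adjp = 0.0309) and with all libraries scaled to the same total at 0.19 (0.000522). It also passed as higher by edgeR (edgeR adjp = 0.0336) and in a fit of only the 6 libraries compared (limma adjp = 0.0312). The larger increases lay in the chaperone genes that regulate peptide loading, *H2-Oa*, from 52 ± 5.76 to 284 ± 53.5 [log2(fc) = 2.42], and *H2-Ob*, from 55.3 ± 4.36 to 232 ± 27.7 [log2(fc) = 2.05]. Among the proteases that cut antigen and the invariant chain, *Lgmn*, or legumain, fell from 15680.5 ± 109.6 to 7012 ± 107 [log2(fc) = −1.16], *Ctsd* from 236805 ± 12880 to 116737 ± 6082 [log2(fc) = −1.02] and *Ctss*, the cathepsin that removes the invariant chain, from 207142 ± 2267 to 184958 ± 2533 [log2(fc) = −0.16]. MHC class I genes rose in 16 of 20 cases and fell in 4, with a median log2(fc) of 0.92. *B2m*, the light chain of all class I molecules, had 99713, 95215 and 99634 normalized counts in Ctrl and 201800.3, 198760 and 200681 in Aβ [log2(fc) = 1.03 ± 0.05 SE, limma adjp = 9.85e-14], and *H2-K1* rose from 22958 ± 265 to 69698 ± 2548. The largest fitted increases were those of *H2-Q7* and *H2-Q6*, near-identical copies whose reads the counting could have divided between them, so that their separate values are uncertain. The class I chaperone genes *Calr* and *Pdia3* fell from 34649 ± 728 to 27654 ± 900 [log2(fc) = −0.33] and from 20049 ± 746 to 15281 ± 240 [log2(fc) = −0.39].

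**Figure D3:**
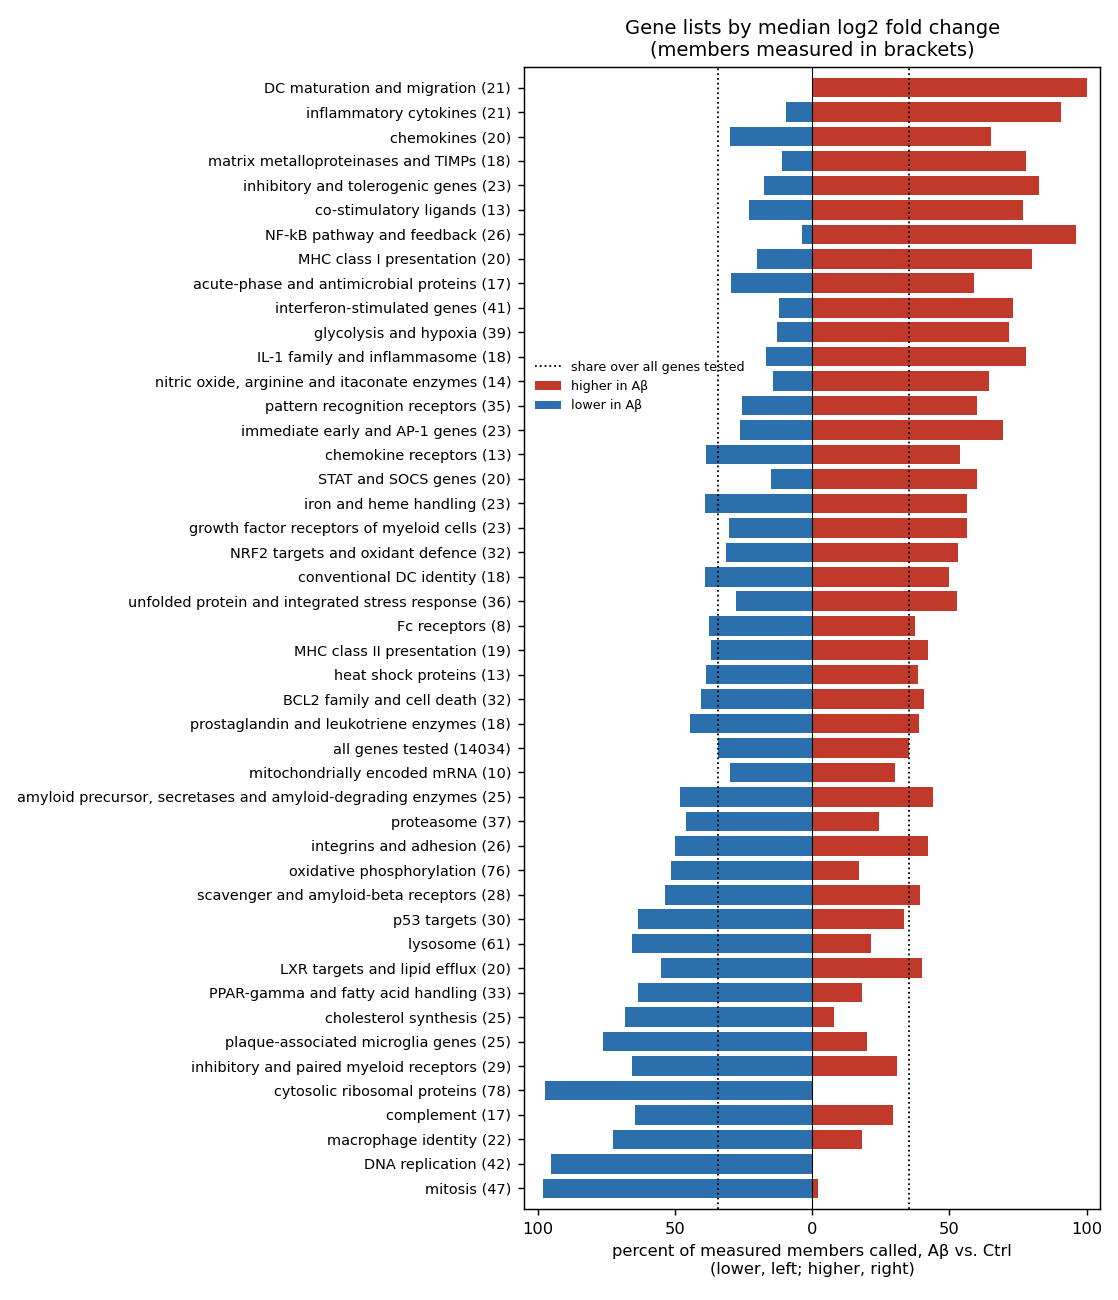
Percent of measured members called higher (red, to the right) or lower (blue, to the left) in Aβ for each gene list other than those of other cell types, ordered by the median log2 fold change, with the number of measured members in brackets and dotted lines at the 35.3% and 34.3% of all genes tested. Maturation, cytokine and chemokine lists stand at the top, and the lists of macrophage identity, DNA replication and mitosis at the bottom.

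Receptors that sense microbes and aggregates moved in both directions. Of 36 pattern recognition genes, 35 were tested, 21 rose and 9 fell. *Clec4e*, the C-type lectin Mincle, had 1145, 1090.0 and 1100.4 normalized counts in Ctrl and 52628, 50994 and 54051 in Aβ, without overlap [log2(fc) = 5.56 ± 0.04 SE, limma adjp = 1.26e-28]. *Cd14*, a co-receptor for LPS that also binds fibrillar Aβ, had 4679, 5298 and 4948 normalized counts in Ctrl and 62740.4, 62361 and 58308 in Aβ [log2(fc) = 3.62 ± 0.05 SE, limma adjp = 3.47e-24]. The formyl peptide receptor gene *Fpr2*, whose human counterpart binds Aβ1-42, rose from 113 ± 11.2 to 2375 ± 35.5 [log2(fc) = 4.39], and *Fpr1* from 145 ± 17 to 3847 ± 109 [log2(fc) = 4.73]. *Trem1*, which amplifies inflammatory signals, rose from 351 ± 19.9 to 2172 ± 11 [log2(fc) = 2.63]. *Tlr8* fell from 5488 ± 281 to 1676 ± 109.7 [log2(fc) = −1.71] and *Tlr13*, a receptor of bacterial ribosomal RNA, from 18747 ± 663 to 11635 ± 528 [log2(fc) = −0.69]. *Tlr4*, the signalling receptor of LPS, differed little, with 3716 ± 147 in Ctrl and 3284 ± 167 in Aβ [log2(fc) = −0.18 ± 0.05 SE, limma adjp = 0.00426]. *Clec4a2* and *Clec5a* did not pass the test, but did as higher with all libraries scaled to the same total (limma adjp of 0.00569 and 0.00212).

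Of 31 scavenger and Aβ receptor genes, 28 were tested, 11 rose and 15 fell. *Olr1*, the lectin-like receptor of oxidised LDL, rose from 1645 ± 67.5 to 20368 ± 983 [log2(fc) = 3.63], and *Marco*, a collagen-like scavenger receptor of macrophages, from 1365 ± 172 to 3206 ± 75.5 [log2(fc) = 1.24]. *Cd36*, which binds fibrillar Aβ and oxidised lipids, had 148965, 143172 and 150639.8 normalized counts in Ctrl and 69656, 71666 and 75972 in Aβ, without overlap [log2(fc) = −1.03 ± 0.05 SE, limma adjp = 2.64e-14]. *Trem2*, the lipid and Aβ receptor of microglia, fell from 20344 ± 1351 to 12204 ± 472 [log2(fc) = −0.74 ± 0.05 SE, limma adjp = 8.34e-12], and its signalling partner *Tyrobp* fell further, from 44171 ± 2746 to 15558 ± 1167 [log2(fc) = −1.51]. *Scarb1* fell from 2546 ± 116 to 1206 ± 29.4 [log2(fc) = −1.08]. Of 12 Fc receptor genes, 8 were tested, 3 rose and 3 fell (37.5% each), near the 35.3% and 34.3% of all genes tested. The inhibitory receptor gene *Fcgr2b* rose from 2027 ± 61.4 to 12351 ± 34.7 [log2(fc) = 2.61 ± 0.04 SE, limma adjp = 1.82e-23]. The activating receptor genes *Fcgr4* and *Fcgr1* fell from 3014 ± 93.7 to 417 ± 51.9 [log2(fc) = −2.86] and from 1487 ± 178 to 539 ± 50.6 [log2(fc) = −1.46], and *Fcgr3* had 31178 ± 1127 in Ctrl and 32726 ± 703 in Aβ without passing the test [log2(fc) = 0.07 ± 0.04 SE, limma adjp = 0.166], although it passed as higher with all libraries scaled to the same total (limma adjp = 0.00142). Of 29 paired and inhibitory myeloid receptor genes 9 rose and 19 fell. *Clec12a*, a receptor for uric acid crystals, fell from 6738 ± 413 to 499 ± 50 [log2(fc) = −3.75], *Lair1*, the inhibitory collagen receptor, from 7306 ± 288 to 1066 ± 76.7 [log2(fc) = −2.78] and *Siglec1* from 1872 ± 88.2 to 340.2 ± 31.6 [log2(fc) = −2.46], while *Siglece* rose from 81.1 ± 12.1 to 579 ± 34.9 [log2(fc) = 2.83].

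Among growth factor and cytokine receptors, 13 of 23 genes rose and 7 fell. *Il1r1* rose from 153 ± 16.8 to 907 ± 68.6 [log2(fc) = 2.56] and *Il4ra* from 2229 ± 62.8 to 6968 ± 214 [log2(fc) = 1.64]. *Kit*, the receptor of stem cell factor, rose from 25.6 ± 8.13 to 276 ± 13.3 [log2(fc) = 3.43]. Those that fell included *Il6ra*, the IL-6 binding subunit, from 962 ± 114 to 411 ± 23.1 [log2(fc) = −1.22], and *Ifngr1*, which binds interferon gamma, from 3671 ± 102 to 1669.5 ± 30.8 [log2(fc) = −1.14]. The chains of the GM-CSF receptor went in opposite directions, with *Csf2ra* lower [log2(fc) = −0.75 ± 0.06 SE, limma adjp = 1.62e-10] and *Csf2rb* higher [log2(fc) = 1.13 ± 0.05 SE, limma adjp = 2.4e-15].

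Macrophage identity genes fell in 16 of 22 measured cases of 25 listed and rose in 4, with a median log2(fc) of −1.28. The summed level of the list was 1266500 to 1291600 normalized counts in the Ctrl libraries and 432930 to 443840 in the Aβ libraries, without overlap, and *Lyz2* held most of it. *Mrc1*, *C1qb* and *Slco2b1*, described above, led the decreases. *Cd14*, *Marco*, *Ms4a7* and *Adgre1*, which encodes F4/80, rose, *Adgre1* from 21722 ± 195 to 35063 ± 515 [log2(fc) = 0.69]. *Csf1r*, the receptor of the macrophage growth factor, fell from 25776 ± 1300 to 20886 ± 673 [log2(fc) = −0.30]. Of 19 genes of conventional dendritic cell identity 18 were tested, 9 rose and 7 fell. *Irf4* rose from 577 ± 20.7 to 1879 ± 72.8 [log2(fc) = 1.70], *Zbtb46* from 106 ± 5.21 to 337 ± 21.4 [log2(fc) = 1.66] and *Clec9a*, a receptor for dead cells, from 322 ± 32.6 to 915 ± 40.2 [log2(fc) = 1.51]. *Mgl2* and *Clec10a*, lectins of the dendritic cells and macrophages that respond to IL-4, fell from 1093 ± 98.6 to 89 ± 4.83 [log2(fc) = −3.60] and from 162 ± 20.2 to 16.8 ± 3.21 [log2(fc) = −3.21]. Macrophage and dendritic cell genes moved in the same libraries as the gene groups above and below, and their part in those results was not tested.

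Complement genes moved in both directions. Of 22 listed 17 were tested, 5 rose and 11 fell. The C1q chains that start the classical pathway went down, with 5151, 5149 and 5297 normalized counts in Ctrl and 154, 166 and 201 in Aβ for *C1qb* [log2(fc) = −4.90 ± 0.08 SE, limma adjp = 1.23e-22] and from 852 ± 49.8 to 46.9 ± 9.12 for *C1qa* [log2(fc) = −4.17]. The proteases beside C1q and the central component went up: *C1s1* rose from 4.5 ± 2.47 to 276 ± 21.1 [log2(fc) = 5.75], *Cfb*, factor B of the alternative pathway, from 18.2 ± 5.49 to 371 ± 12 [log2(fc) = 4.31], and *C3* from 2867 ± 74.3 to 21196 ± 750.2 [log2(fc) = 2.89 ± 0.05 SE, limma adjp = 2.06e-22]. *C5ar2* fell from 129.8 ± 14.8 to 29.9 ± 6.5 [log2(fc) = −2.10] and *Cd59a*, which blocks the terminal pore, from 284 ± 31.1 to 106 ± 6.84 [log2(fc) = −1.40].

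Genes that mark microglia around plaques were mostly lower. Of 25 listed and tested, 19 fell and 5 rose, with a median log2(fc) of −0.74. *Igf1*, a growth factor, fell from 17128 ± 475 to 2346 ± 142 [log2(fc) = −2.87 ± 0.05 SE, limma adjp = 7.08e-22], beside *Apoe*, *Spp1*, *Lyz2*, *Ccl6* and *Tyrobp*. *Cst7*, an inhibitor of cysteine proteases, was the list's largest increase, from 199.6 ± 27 to 2335 ± 48 [log2(fc) = 3.55 ± 0.07 SE, limma adjp = 1.03e-20], and *Gpnmb* and *Fth1* rose by less [log2(fc) = 0.32] [log2(fc) = 0.40]. Of 29 genes for the amyloid precursor, its secretases and Aβ-degrading enzymes 25 were tested, 11 rose and 12 fell. *App*, the precursor gene, had 24648 ± 88.1 in Ctrl and 22721 ± 234 in Aβ, a small decrease [log2(fc) = −0.12 ± 0.04 SE, limma adjp = 0.0121] that was not called with all libraries scaled to the same total. *Adam10*, the main alpha-secretase, fell from 8155 ± 233 to 5001 ± 171 [log2(fc) = −0.71] and *Psen2*, a gamma-secretase subunit, from 2655 ± 125 to 1469.6 ± 50 [log2(fc) = −0.85]. *Mmp9* and *Plat*, tissue plasminogen activator, rose from 325 ± 37 to 6504 ± 212 [log2(fc) = 4.33] and from 3.86 ± 1.1 to 166 ± 18.5 [log2(fc) = 5.12], and *Plau*, the urokinase gene, fell from 9291 ± 169 to 5315 ± 252 [log2(fc) = −0.81].

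Lysosomal genes fell more often than they rose, by small amounts. Of 61 measured 40 fell and 13 rose, with a median log2(fc) of −0.34 and only 10 lower by over 1. *Lipa*, the acid lipase that frees cholesterol from its esters, had 73734, 74293 and 74733 normalized counts in Ctrl and 22793, 25022 and 24047 in Aβ, without overlap [log2(fc) = −1.63 ± 0.05 SE, limma adjp = 2.21e-18]. *Gusb* fell from 22714 ± 633 to 8204 ± 22.8 [log2(fc) = −1.47], *Ctsb*, a cathepsin that can cleave Aβ, from 361250 ± 5792 to 189291 ± 3115 [log2(fc) = −0.93] and *Atp6v0a1*, a subunit of the proton pump, from 17037 ± 530.1 to 6042 ± 90.5 [log2(fc) = −1.50]. *Ctsz* and *Npc2*, the carrier that moves cholesterol within lysosomes, rose from 38553 ± 1786 to 58479 ± 2367 [log2(fc) = 0.60] and from 39217 ± 1075 to 57805 ± 1585 [log2(fc) = 0.56]. *Ctsl* had 92576 ± 1597 in Ctrl and 96288 ± 2418 in Aβ and did not pass the test [log2(fc) = 0.06 ± 0.05 SE, limma adjp = 0.279], although it passed as higher with all libraries scaled to the same total (limma adjp = 0.00261).

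Genes of lipid synthesis, storage and efflux were lower on balance. Of 26 cholesterol synthesis genes 25 were tested, 17 fell and 2 rose, with a median log2(fc) of −0.48. Without Ctrl replicate 1 or Ctrl replicate 3 the number that rose was 1. Of 23 LXR targets and efflux genes 20 were tested, 8 rose and 11 fell. *Nr1h3*, which encodes LXRα itself, fell from 1218 ± 117 to 309.6 ± 3.5 [log2(fc) = −1.97], as did *Pltp*, the phospholipid transfer protein, from 1987 ± 154 to 245 ± 13.6 [log2(fc) = −3.01]. The efflux pump gene *Abca1* rose from 3160.3 ± 40.2 to 14787 ± 1067 [log2(fc) = 2.22 ± 0.05 SE, limma adjp = 2.53e-19]. Of 35 genes of PPARγ and fatty acid handling 33 were tested, 21 fell and 6 rose. *Pparg* fell from 1144 ± 32.1 to 132 ± 6.29 [log2(fc) = −3.11 ± 0.08 SE, limma adjp = 1.39e-18]. Its target *Fabp4*, a fatty acid carrier, had 8103, 8035 and 8592 normalized counts in Ctrl and 487, 442 and 484 in Aβ [log2(fc) = −4.13 ± 0.06 SE, limma adjp = 2.87e-23], and *Fabp5* fell from 82473 ± 2271 to 20033 ± 675 [log2(fc) = −2.04]. *Dgat2* and *Acsl1*, which build triglyceride and activate fatty acids, rose from 27.9 ± 8.02 to 539 ± 70.4 [log2(fc) = 4.25] and from 1525 ± 63.5 to 8162 ± 164 [log2(fc) = 2.42].

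Glycolysis and hypoxia genes rose in 28 of 39 cases and fell in 5, with a median log2(fc) of 0.68. Without Ctrl replicate 2 the number that fell was 3. *Egln3*, an oxygen-sensing prolyl hydroxylase induced by HIF, had 8.11, 4.57 and 13.3 normalized counts in Ctrl and 748, 628 and 697 in Aβ [log2(fc) = 6.26 ± 0.22 SE, limma adjp = 9.81e-17]. *Vegfa* rose from 833 ± 56.6 to 4520.4 ± 209 [log2(fc) = 2.44] and the mitophagy receptor gene *Bnip3* from 450.4 ± 23.8 to 1779.9 ± 63.7 [log2(fc) = 1.98], while *Epas1*, which encodes HIF-2α, fell from 957 ± 14.6 to 77 ± 8.21 [log2(fc) = −3.62 ± 0.13 SE, limma adjp = 2.08e-16]. *Pkm* and *Aldoa* did not pass the test, but *Pkm* did as higher without Ctrl replicate 2 (limma adjp = 0.0341) and with all libraries scaled to the same total (0.000741). *Pkm* also passed as higher with TMM scaling (limma adjp = 0.0371), by edgeR (edgeR adjp = 0.0299) and in a fit of only the 6 libraries compared (limma adjp = 0.0451). Oxidative phosphorylation genes moved little, with 39 of 76 lower, 13 higher and a median log2(fc) of −0.18. With all libraries scaled to the same total, 24 were lower and 18 higher. *Cox4i1* fell from 10134 ± 125 to 5576 ± 203 [log2(fc) = −0.86] and *Ndufs8* from 959 ± 29.9 to 459 ± 37.3 [log2(fc) = −1.06]. Of 13 mRNAs encoded in mitochondria 10 were tested, 3 rose and 3 fell, among them *mt-Nd1*, from 55499 ± 4383 to 81441 ± 5303 [log2(fc) = 0.55], and *mt-Nd5*, from 51957 ± 5279 to 41404 ± 3668 [log2(fc) = −0.33]. The call on *mt-Nd5* was lost without Aβ replicate 1 (limma adjp = 0.0704) or Ctrl replicate 1 (0.0747), and the number that fell was then 1.

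The enzymes that turn arginine into nitric oxide or ornithine and those of itaconate and prostaglandin synthesis included *Nos2* and *Ptgs2*, both among the 20 largest increases. Of 14 nitric oxide, arginine and itaconate genes 9 rose and 2 fell. *Acod1*, which makes itaconate, had 751, 723 and 826 normalized counts in Ctrl and 24209.8, 24882 and 24830.0 in Aβ [log2(fc) = 5.01 ± 0.05 SE, limma adjp = 7.49e-27]. The arginine transporter gene *Slc7a2* rose from 2767 ± 174 to 33424 ± 2062 [log2(fc) = 3.59], and *Gch1*, which starts the synthesis of the cofactor of nitric oxide synthase, from 694 ± 13 to 1824 ± 106 [log2(fc) = 1.39]. Of 19 prostaglandin and leukotriene genes 18 were tested, 7 rose and 8 fell. *Ptgs2*, or cyclooxygenase 2, had 99.3, 90.3 and 100.2 normalized counts in Ctrl and 25424, 24206 and 26307 in Aβ, without overlap [log2(fc) = 8.02 ± 0.06 SE, limma adjp = 1.51e-28], and *Ptges*, which completes prostaglandin E2, rose from 174 ± 24.4 to 2588 ± 127 [log2(fc) = 3.90]. Those that fell included *Alox5*, which starts leukotriene synthesis, from 1241 ± 10.4 to 550.2 ± 47.4 [log2(fc) = −1.18], *Tbxas1*, thromboxane synthase, from 9485 ± 175 to 3361 ± 112 [log2(fc) = −1.50] and *Hpgds*, which makes prostaglandin D2, from 3196 ± 59.6 to 307 ± 28.2 [log2(fc) = −3.38].

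Acute-phase and antimicrobial genes were listed 19 times and tested 17 times, with 10 higher and 5 lower. *Cp*, ceruloplasmin, rose from 7.83 ± 4.12 to 459.9 ± 28.6 [log2(fc) = 5.85] and *Hp*, haptoglobin, from 252 ± 25.6 to 4077 ± 170.1 [log2(fc) = 4.01], while the lysozyme genes *Lyz1* and *Lyz2*, close copies of each other, fell. *S100a9* had 111 ± 79.1 in Ctrl and 174 ± 106 in Aβ and did not pass the test [log2(fc) = 0.72 ± 0.52 SE, limma adjp = 0.22], although it did without Ctrl replicate 3 (limma adjp = 0.0402). Of 25 iron and heme genes 23 were tested, 13 rose and 9 fell. *Hamp*, the gene of hepcidin, which closes the iron exporter, rose from 2.05 ± 3.54 to 576 ± 60.3 [log2(fc) = 8.22]. The exporter gene itself, *Slc40a1*, fell from 4739 ± 242 to 1942 ± 106 [log2(fc) = −1.29 ± 0.06 SE, limma adjp = 4.75e-15], and the chains of ferritin moved apart, *Fth1* up and *Ftl1* down [log2(fc) = −0.54]. Of 32 NRF2 and oxidant defence genes 17 rose and 10 fell. *Sod2*, the mitochondrial superoxide dismutase, rose from 1629 ± 86.4 to 10316 ± 209.6 [log2(fc) = 2.66], *Nqo1* from 1383 ± 136 to 6815 ± 402 [log2(fc) = 2.30] and *Hmox1*, which breaks down heme, from 14561 ± 243 to 51515 ± 2714 [log2(fc) = 1.82 ± 0.05 SE, limma adjp = 9.98e-19]. *Gpx1* fell from 50900.1 ± 1819 to 22366 ± 329 [log2(fc) = −1.19].

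Of 36 genes of the unfolded protein and integrated stress responses 19 rose and 10 fell. Increases included genes of the amino acid response, *Slc7a11*, the cystine importer, from 5377 ± 155 to 33488 ± 1446 [log2(fc) = 2.64], *Trib3*, from 129 ± 12.1 to 641 ± 51.3 [log2(fc) = 2.30], and *Ddit3*, or CHOP, from 921 ± 38.5 to 3092 ± 102 [log2(fc) = 1.75]. Decreases included chaperones of the endoplasmic reticulum, *Hsp90b1* from 26893 ± 1563 to 17744 ± 453 [log2(fc) = −0.60] and *Hspa5*, or BiP, from 30788 ± 858 to 28493 ± 634 [log2(fc) = −0.11 ± 0.04 SE, limma adjp = 0.0308]. The call on *Hspa5* was lost without Aβ replicate 1 or 3 or Ctrl replicate 1 or 3 (limma adjp of 0.077 to 0.115). Of 14 heat shock genes 13 were tested, 5 rose and 5 fell (38.5% each), near the 35.3% and 34.3% of all genes tested. *Hspa1b* rose from 21.5 ± 3.74 to 142 ± 19 [log2(fc) = 2.67], its value uncertain because *Hspa1a* is a near-identical copy, and *Hspa8* fell from 28035 ± 383 to 19022 ± 303 [log2(fc) = −0.56]. Proteasome genes were 9 higher and 17 lower of 37, with 70.3% called against 69.7% of all genes tested. The immunoproteasome subunit gene *Psmb9* was up [log2(fc) = 0.51] and *Psmb10* down [log2(fc) = −0.51].

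Interferon-stimulated genes rose in 30 of 41 measured cases of 42 listed and fell in 5, with a median log2(fc) of 0.84. *Ifi205*, of the DNA-sensing Ifi200 family, rose from 41 ± 23.6 to 1439 ± 35.9 [log2(fc) = 5.28]. *Gbp5*, a guanylate-binding protein that acts on bacterial membranes, had 118, 114 and 147 normalized counts in Ctrl and 2184, 2018 and 2122 in Aβ [log2(fc) = 4.06 ± 0.09 SE, limma adjp = 1.73e-20], and *Gbp2* rose from 1522 ± 97.6 to 10006 ± 160 [log2(fc) = 2.72]. Among the 5 that fell were the antiviral effector genes *Ifit2*, *Mx1* and *Oas2*. *Ifit2* fell from 1402 ± 559 to 892 ± 47 [log2(fc) = −0.57], *Mx1* from 1521 ± 237 to 1034 ± 32.2 [log2(fc) = −0.55] and *Oas2* from 622 ± 88.7 to 415 ± 33.2 [log2(fc) = −0.57]. Other genes of the Ifit and Oas families in the list moved both ways, with log2(fc) of −1.24 and 3.28 among them. The summed level of the list was 32907 to 45952 normalized counts in Ctrl and 73290 to 76573 in Aβ, so that the Ctrl libraries were spread more widely. Without Ctrl replicate 2 the number lower became 8 and without Ctrl replicate 3 it became 3, and *Ifit2* was then no longer called (limma adjp = 0.0915). The interferon response element, searched on both strands as GAAA, any 2 bases and GAAA again, was found before 19 of 32 of the measured genes with a promoter, against 3.46% of all 27025. Of these 19 genes 13 were higher, 2 lower and 4 not called. The stretches of 3 that rose, chosen after their values were seen, show it in capitals.
Ifi205, chr1:174031850-174031919, minus strand: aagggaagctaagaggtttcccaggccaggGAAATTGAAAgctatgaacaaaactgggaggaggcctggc
Gbp5, chr3:142496739-142496808, plus strand: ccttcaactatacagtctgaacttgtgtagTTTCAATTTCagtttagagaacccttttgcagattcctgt
Gbp2, chr3:142620574-142620643, plus strand: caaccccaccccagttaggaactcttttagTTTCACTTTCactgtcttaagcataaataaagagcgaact

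Matrix metalloproteinase and TIMP genes mostly rose, and integrin and adhesion genes moved in both directions. Of 20 genes of matrix metalloproteinases and TIMPs 18 were tested, 14 rose and 2 fell, with a median log2(fc) of 1.97. *Mmp13*, a collagenase, had 31906, 29433 and 32672 normalized counts in Ctrl and 153374, 152584 and 155585 in Aβ, without overlap [log2(fc) = 2.30 ± 0.05 SE, limma adjp = 1.16e-19]. *Mmp10* rose from 49.7 ± 2.3 to 1800.2 ± 75.8 [log2(fc) = 5.15] and *Mmp14*, a membrane-bound activator of other metalloproteinases, from 1872 ± 49.8 to 7343 ± 382 [log2(fc) = 1.97], while *Timp2* fell from 6691 ± 18.2 to 2852 ± 64.2 [log2(fc) = −1.23]. Of 27 integrin and adhesion genes 26 were tested, 11 rose and 13 fell. *Thbs1*, thrombospondin 1, had 4748, 4711 and 5018 normalized counts in Ctrl and 79057, 80208 and 86170.0 in Aβ [log2(fc) = 4.08 ± 0.05 SE, limma adjp = 1.02e-24]. *Itgb8*, the integrin that activates TGF-β, rose from 14 ± 3.05 to 451 ± 48.1 [log2(fc) = 4.93] and *Vcam1* from 84.7 ± 6.43 to 619.6 ± 29.8 [log2(fc) = 2.86]. *Fn1*, fibronectin, rose from 352 ± 34.4 to 554 ± 25.8 [log2(fc) = 0.66 ± 0.10 SE, limma adjp = 4.25e-06]. *Itgb7* and *Itga6* fell from 572 ± 15.9 to 133 ± 11.3 [log2(fc) = −2.10] and from 2319.7 ± 118 to 615 ± 56.9 [log2(fc) = −1.92].

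Proliferation genes fell almost without exception. Of 42 DNA replication genes 40 fell and none passed the test as higher, with a median log2(fc) of −1.97. *Mcm5*, part of the replicative helicase, had 2103, 2187 and 2095 normalized counts in Ctrl and 294, 295 and 259 in Aβ, without overlap [log2(fc) = −2.91 ± 0.07 SE, limma adjp = 7.19e-20]. *Rrm2*, which makes deoxynucleotides, fell from 2976 ± 27.9 to 347 ± 21.9 [log2(fc) = −3.10] and *Tk1* from 643 ± 34 to 59.5 ± 12.1 [log2(fc) = −3.43], while *E2f1* had 941 ± 33.4 in Ctrl and 859.6 ± 27.8 in Aβ and *Gins3* 180.1 ± 23 in Ctrl and 147 ± 11.2 in Aβ, neither passing the test [log2(fc) = −0.13 ± 0.06 SE, limma adjp = 0.056] [log2(fc) = −0.29 ± 0.14 SE, limma adjp = 0.0726]. *E2f1* passed as lower without Ctrl replicate 3 (limma adjp = 0.0437) and in a fit of only the 6 libraries compared (0.0481). *Gins3* passed as lower without Ctrl replicate 2 (limma adjp = 0.0306). Of 47 mitosis genes 46 fell, with a median log2(fc) of −2.88, the lowest of the lists. *Ccnb2*, a cyclin of mitotic entry, had 772, 779 and 719.9 normalized counts in Ctrl and 45.4, 33.2 and 78.9 in Aβ [log2(fc) = −3.91 ± 0.19 SE, limma adjp = 5.8e-14]. *Plk1* fell from 546 ± 25.8 to 46.5 ± 1.11 [log2(fc) = −3.52] and *Ube2c*, which works with the anaphase-promoting complex, from 966 ± 37.9 to 77.4 ± 4.78 [log2(fc) = −3.62]. *Pttg1*, securin, was the exception, rising from 417 ± 17.2 to 565 ± 26.6 [log2(fc) = 0.44 ± 0.08 SE, limma adjp = 6.14e-05]. The cell cycle homology region TTTGAA, where the DREAM complex represses genes of the late cell cycle, was found on either strand before 14 of 39 mitosis genes with a promoter, against 18.3% of all 27025 genes. The CCAAT box was found before 27 of 39, against 37.5%. The stretches of 3 genes with large decreases are printed with the TTTGAA match in capitals.
Ube2c, chr2:164769870-164769928, plus strand: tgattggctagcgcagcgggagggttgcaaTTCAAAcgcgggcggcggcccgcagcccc
Prc1, chr7:80294416-80294475, plus strand: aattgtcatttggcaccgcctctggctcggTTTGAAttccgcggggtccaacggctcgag
Cdc20, chr4:118437344-118437391, minus strand: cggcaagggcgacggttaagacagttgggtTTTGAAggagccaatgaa

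Of 30 p53 target and cell cycle control genes 10 rose and 19 fell. *Ccnd1*, cyclin D1, had 11149, 9988 and 11681 normalized counts in Ctrl and 1029, 1052 and 1124 in Aβ, without overlap [log2(fc) = −3.35 ± 0.06 SE, limma adjp = 4.72e-22], whereas *Ccnd2* rose from 1798 ± 74 to 7509.9 ± 350.3 [log2(fc) = 2.06]. *Cdkn1a*, the p21 inhibitor of cell cycle kinases, had 9567 ± 259 in Ctrl and 9101 ± 432 in Aβ and did not pass the test [log2(fc) = −0.07 ± 0.04 SE, limma adjp = 0.136]. *Perp* and *Sesn1* fell from 853 ± 31.5 to 129 ± 9.48 [log2(fc) = −2.72] and from 1897 ± 39 to 336 ± 31.9 [log2(fc) = −2.50]. Of 33 cell death genes 32 were tested, 13 rose and 13 fell (40.6% each, against 35.3% and 34.3% of all genes tested). *Cflar*, which blocks caspase 8, rose from 3709 ± 168 to 12208 ± 371 [log2(fc) = 1.72], and the pro-apoptotic genes *Bbc3* and *Bcl2l11* fell from 373 ± 74.9 to 187 ± 32.3 [log2(fc) = −0.98] and from 2758 ± 102 to 1569 ± 94.9 [log2(fc) = −0.81]. The *Bcl2a1* genes rose too, but are near-identical copies with uncertain separate values.

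Cytosolic ribosomal protein genes fell in 76 of 78 measured cases and rose in none, with a median log2(fc) of −0.74 and quartiles of −0.86 and −0.57. *Rpl3* had 12834, 13643 and 13149 normalized counts in Ctrl and 5593, 5631 and 5601 in Aβ, without overlap [log2(fc) = −1.24 ± 0.05 SE, limma adjp = 2.3e-15]. *Rpl12* fell from 14024 ± 196 to 5961 ± 156 [log2(fc) = −1.23] and *Rps27* had 4546 ± 254 in Ctrl and 4333 ± 355 in Aβ, not passing the test [log2(fc) = −0.07 ± 0.06 SE, limma adjp = 0.297]. Several of these genes have processed copies in the genome that could share their reads, so single values are uncertain.

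**Figure D4:**
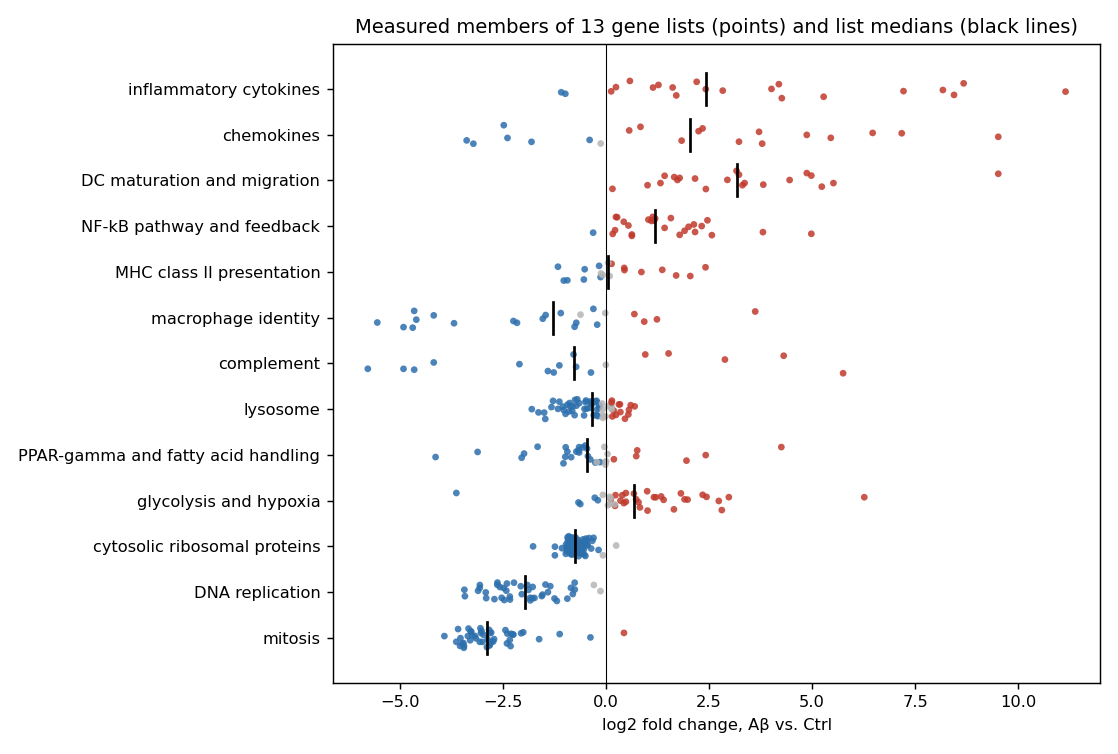
Log2 fold change of Aβ vs. Ctrl (horizontal axis) for the measured members of 13 lists, with red points called higher, blue points called lower, grey points not called and a black line at the list's median. Cytokine and maturation genes spread to the right up to 11.14 for *Il6*, mitosis genes lie to the left with a median of −2.88, and ribosomal protein genes cluster near −0.74. Points of genes at 0 in Ctrl, such as *Il12a* and *Csf3*, depend on the pseudocount.

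Many markers of other cell types were below the filter, and those tested moved in both directions. Of 20 neutrophil genes 12 were tested, 6 rose and 4 fell, and the summed level was 18029 to 19490 normalized counts in Ctrl and 95282 to 98218 in Aβ, most of it from *Mmp8*, *Lcn2* and *Mmp9*. The defining granule genes *Mpo* and *Elane* and the surface marker gene *Ly6g* did not pass the filter. Of 16 B cell genes 7 were tested and 6 rose, with *Pax5* and *Ms4a1* below the filter and *Ighm* from 503 ± 101 to 1077 ± 153 [log2(fc) = 1.11]. Of 18 T and NK cell genes 4 were tested and 2 rose, with *Cd3e* and *Trac* below the filter. Of 13 mast cell and basophil genes 3 were tested and rose, among them *Hdc*, which makes histamine, from 6.65 ± 2.16 to 595 ± 11.9 [log2(fc) = 6.32], with *Cpa3* and *Fcer1a* below the filter. Of 9 eosinophil genes 5 were tested and 4 fell, *Ear2* from 1091 ± 33.9 to 146 ± 18.9 [log2(fc) = −2.90], a member of a family of close copies. Of 10 plasmacytoid dendritic cell genes 7 were tested, 6 rose and 1 fell, with *Siglech* below the filter. No erythroid gene passed the filter. Of 12 fibroblast genes 8 were tested, 5 rose and 1 fell, with *Col1a1* and *Col3a1* below the filter although *Dcn* was high, and *Postn* fell from 232 ± 39.2 to 13 ± 4.3 [log2(fc) = −4.08]. Of 10 osteoclast genes 8 were tested, 5 rose and 3 fell, *Dcstamp* from 4559 ± 117 to 9399 ± 219 [log2(fc) = 1.04] among the increases and *Ocstamp* from 432 ± 39.5 to 201 ± 12.9 [log2(fc) = −1.10] among the decreases.

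Aβ alone was compared with LPS alone to place its size. The agent, its dose and its duration differ together between these groups, so that their parts cannot be told apart. In the paper's schematic of the combined setup, the oligomers ran for 4 days in all and began the day before LPS maturation. By that schedule LPS began more than 18 h before harvest, so the LPS values are not those of an 18 h time point. The time from LPS to harvest is not stated separately for LPS alone. Tested directly on the same 14034 genes, 3843 were higher in Aβ than in LPS (27.4%) and 3839 lower (27.4%), together 54.7%. Of the 4960 genes higher with Aβ than in Ctrl, 3282 stood above LPS as well, 85 below it and 1593 were not called. Of the 4817 lower genes, 3341 stood below LPS, 68 above it and 1408 were not called. *Il6* had 235, 215 and 223 normalized counts in LPS, below the Aβ libraries [log2(fc) = 5.58 ± 0.10 SE, limma adjp = 1.48e-20], and *Il1b* 1436, 1484 and 1513 [log2(fc) = 4.49 ± 0.06 SE, limma adjp = 2.18e-22]. For these cytokine genes LPS lay between Ctrl and Aβ. *Vcam1* had 83, 92.3 and 75.1 in LPS, near its Ctrl level, against 618, 591 and 650.1 in Aβ [log2(fc) = 2.88 ± 0.10 SE, limma adjp = 4.56e-16]. *Ccl2* had 5111, 5493 and 4588 in LPS, above the Aβ libraries [log2(fc) = −1.65 ± 0.06 SE, limma adjp = 3.34e-15], and *Tnfsf18* 137, 118 and 146 [log2(fc) = −2.28 ± 0.24 SE, limma adjp = 4.14e-08]. *Card14*, an NF-kB scaffold gene, had 286, 250.2 and 249 in LPS and 59.3, 61 and 40.4 in Aβ [log2(fc) = −2.29 ± 0.19 SE, limma adjp = 8.24e-10]. *H2-Eb1* and *Ciita* were lower in LPS than in Aβ [log2(fc) = 0.61 ± 0.04 SE, limma adjp = 9.92e-11] [log2(fc) = 0.87 ± 0.07 SE, limma adjp = 9.24e-10].

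Giving LPS to cells that had received Aβ changed few genes further. At an adjusted p under 0.05, 3 of 14034 genes were higher in Aβ+LPS than in Aβ and 16 lower (0.135%), none by over 1 on the log2 scale. The count depended on single libraries and on the fit, with 6 to 36 genes when 1 library was left out (6 without Aβ replicate 2 or Aβ+LPS replicate 2, 7 without Aβ replicate 3, 10 without Aβ replicate 1 or Aβ+LPS replicate 1 and 36 without Ctrl replicate 2), 31 by edgeR, 49 by DESeq2 and 72 in a fit of only the 6 libraries compared. At an unadjusted p under 0.05 there were 884. *Apoe* had 83.4, 75.3 and 71.8 in Aβ and 111, 111 and 101 in Aβ+LPS [log2(fc) = 0.48 ± 0.08 SE, limma adjp = 0.0173], in both cases far under Ctrl, and *Spp1* was lower in Aβ+LPS [log2(fc) = −0.30 ± 0.06 SE, limma adjp = 0.0283]. *Il6* had 11491, 13226 and 13396 in Aβ+LPS [log2(fc) = 0.23 ± 0.10 SE, limma adjp = 0.727]. A test that calls few genes does not show that the groups are equal.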

How the data were processed

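Poly(A) RNA of 12 libraries, 3 in each of 4 groups, was made into TruSeq Stranded mRNA libraries and sequenced as single reads of 100 bp. Per the submitters' notes, reads were checked with FastQC 0.11.5, mapped with HISAT2 2.1.0 to GRCm38, counted per gene with featureCounts 1.6.0 and compared with DESeq2 in R 3.4.4. The signal values deposited by the authors are normalized counts, that is reads per gene divided by 1 size factor per library. The deposited tables also hold columns of the authors' own comparisons (fold changes and p-values), which were not used. Low values stood at whole multiples of what 1 read is worth, and 100% of the values came out whole within 0.05 read in every library (in 1 library each of LPS and Aβ the step lay close to 1, so that the recovery is less certain there), so read numbers were recovered for the count-based alternatives. The files list 53465 genes, of which 26760 had reads, and 99.8% of their identifiers were in the GENCODE annotation given. Symbols for 285 genes were filled from it. Libraries held between 23415609 and 29690965 recovered reads, and counting intervals and floors cover counting error only.

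Log2(normalized count + 1) of genes that averaged 10 or more in Ctrl or Aβ was fitted with limma 3.58.1 in R 4.3.3, with group as the only term over all 12 libraries (8 residual degrees of freedom), and p-values were adjusted by Benjamini and Hochberg over the 14034 genes with a threshold of 0.05. The added 1 understates the change of low genes. A fold against a group with no read was set against a floor of 3 reads over the group, and the median of no list changed when such genes were placed at that bound. Alternatives were other pseudocounts (0.5 and 5), filters (none, a mean of 10 in any group, a mean of 50), scalings (TMM, the same total), edgeR 4.0.16 and DESeq2 1.42.0 on recovered reads, a fit of only the 6 libraries compared, a replicate block, and each library left out in turn. The fits were tested on simulated data. Plots were drawn with Matplotlib 3.10.9, from tables joined with pandas 2.3.3 and NumPy 2.4.6 under Python 3.11.15. Promoters are those of RefSeq for GRCm38.p6, read in the 250 bases before the start.

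The comparison and the 54 gene lists were chosen with earlier results of these data known. Named genes were the 20 largest changes in each direction with a mean of at least 100 in the higher group and no overlap between libraries, up to 6 called members of each list in each direction, up to 4 per list that went against it or did not pass, and genes the study names. *Cd74* and *Flt3* are cell type markers. *Ccl9*, *Csf2rb2*, *Ebi3*, *Hspa1a*, *Il10*, *Il1rn*, *Il23a*, *Il27*, *Inhba*, *Mmp12*, *Psap*, *Tlr4*, *Tnf*, *Trem2* and the list members named as below the filter were chosen after their values were seen. Some genes that the rule takes are not reported here.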

Additional observations from a re-analysis of the deposited data

How the results depend on the processing

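Across 17 alternatives, the genes higher in Aβ than in Ctrl numbered 4229 to 5854 (4960 as reported) and those lower 4059 to 4883 (4817), and with 1 library left out 4661 to 4748 and 4545 to 4627. DESeq2 called 9562 genes, edgeR 9793 and the reported fit 9777. The genes higher by over 1 on the log2 scale fell to 1167 when a mean of at least 50 was required, which leaves fewer genes to test. Of 263 named genes, 238 kept their direction and their side of the threshold under every alternative and 25 did not. Of 4468 values of a gene under an alternative, 20 lost the call, 20 gained it and 5 turned direction. Scaling all libraries to the same total moved the median of all genes from 0.0164 to 0.1098 and the share of called genes that were higher from 50.7% to 59.1%. The log2(fc) of *Aldoa* (0.021), *Cd74* (0.018), *Cdkn1a* (0.021) and *Rps27* (0.023) then turned positive, none of them called in either fit, and that of *Stat2*, not called either, ran from −0.033 without Ctrl replicate 2 to 0.132 without Ctrl replicate 3. At the same total *App*, *Card14*, *Ctss*, *Tlr4*, *Hspa5* and *mt-Nd5* lost the call, and *Clec4a2*, *Clec5a*, *Ctsl*, *Fcgr3*, *Gsdmd*, *H2-Eb1* and *Pkm* were called as higher. *mt-Nd5* was not called by DESeq2 either. The call on *Card14* as lower in Aβ than in Ctrl was also lost without Aβ replicate 3 (limma adjp = 0.136) or Ctrl replicate 1 (0.141). Of 106 list counts 10 moved by over 1.5 times under some alternative.

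The comparison of Aβ+LPS with Aβ, with 3 genes higher and 16 lower, depended most on the fit. DESeq2 gave 19 higher and 30 lower, edgeR 9 higher, the fit without a filter 9 lower and the fit of only the 6 libraries compared 25 higher and 47 lower. With 1 library left out, 0 to 4 genes were higher and 6 to 32 lower. The cause was not tested.

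Libraries of Ctrl and Aβ with the same number did not deviate together (r of −0.0111 to 0.0075 for the 3 pairs), and 0 of these 6 libraries were closest to the library of their own number. Over the 18 same-number pairs of all groups r ran from −0.0825 to 0.0525. For Aβ and Aβ+LPS the same-number pairs had small positive r (0.0331, 0.0525 and 0.0358), and the pairs of other numbers had r of −0.0327 to −0.0045. With the replicate block, 4986 genes were higher and 4836 lower in Aβ than in Ctrl. Genes averaging under 10 normalized counts in both groups were not tested.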
